A study of Mus musculus with 10 samples.

Results

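The triglyceride synthesis genes examined here were *Gpam*, *Agpat2*, *Agpat3*, *Lpin1*, *Lpin2*, *Dgat1*, *Dgat2* and *Mogat1*, together with *Pparg*, which encodes the nuclear receptor PPARγ. They were picked by gene symbol, not by their values, and make up 9 of the 15126 genes in the expression table of this liver RNA-seq experiment. Each symbol had 1 row, and all 9 passed the filter for testing, a mean of at least 1 CPM (reads of a gene scaled to the total of its library).

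The livers came from *db/db* mice, which lack a functional leptin receptor and become obese and diabetic, at 10 weeks of age. All mice had received adeno-associated virus 8 (AAV8), a vector that infects hepatocytes well, 5 weeks earlier, so the 5 AAV8-Control livers (virus encoding eGFP) and the 5 livers given a virus with another transgene, hereafter transgene livers, differed in what the vector encoded. No wild-type and no uninfected liver was analysed here, and the promoter of the vectors is not given in the sources used here. The labels name the tissue as liver while also listing primary hepatocytes and an adenovirus protocol. The libraries held summed endothelial markers (*Pecam1*, *Stab2*, *Lyve1*, *Cdh5*) at 54.9 to 121 CPM and summed stellate cell markers (*Des*, *Lrat*, *Reln*, *Pdgfrb*) at 50.4 to 86.3 CPM, beside hepatocyte markers such as *Alb*. In bulk tissue, fewer cells of a type and less RNA per cell cannot be told apart.

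Library totals, recovered from the CPM steps, were 19499795 to 35498596 reads in AAV8-Control and 21656201 to 26124038 reads in transgene livers. Fold changes and p-values came from limma on log2(CPM + 1) over 11027 genes with Benjamini-Hochberg adjustment. The labels do not say that each library is a separate mouse, so p-values measure the spread between these libraries.

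Hepatocytes build triglyceride on a glycerol backbone. Glycerol-phosphate acyltransferases such as Gpam add the first fatty acid, Agpat enzymes add the next to give phosphatidate, and the lipins remove the phosphate to give diacylglycerol. Dgat enzymes add the last fatty acid, while Mogat1 reaches diacylglycerol from monoacylglycerol by a separate route. PPARγ is scarce in lean liver and abundant in the fatty livers of obese mice, where it drives genes of lipid uptake, storage and droplet formation.

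The upstream sequences of 4 of these genes are shown because their mRNAs had the lowest fold changes of the 9 genes in transgene livers, to place the measured genes in the genome. RefSeq promoter sequences (GRCm38.p6) were available for 7 of the 9 genes, with 12 start sites between them. Capitals mark matches to a CCAAT box (CCAAT on either strand) or a GC box (GGGCGG on either strand), and 1 start site is shown for each gene. Each line ends at the base before its RefSeq start, except that of *Mogat1*, which stops short of that start, where GENCODE annotates an exon.
Gpam: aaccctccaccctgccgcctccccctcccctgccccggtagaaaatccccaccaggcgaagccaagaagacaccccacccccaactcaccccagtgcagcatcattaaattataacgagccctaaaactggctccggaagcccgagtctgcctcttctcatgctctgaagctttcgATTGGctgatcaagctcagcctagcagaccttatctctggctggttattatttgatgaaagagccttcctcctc
Agpat2: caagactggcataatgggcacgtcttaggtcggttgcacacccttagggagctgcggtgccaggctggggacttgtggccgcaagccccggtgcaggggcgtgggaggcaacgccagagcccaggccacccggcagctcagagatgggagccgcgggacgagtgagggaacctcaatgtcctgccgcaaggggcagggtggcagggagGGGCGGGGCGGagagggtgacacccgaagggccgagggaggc
Mogat1: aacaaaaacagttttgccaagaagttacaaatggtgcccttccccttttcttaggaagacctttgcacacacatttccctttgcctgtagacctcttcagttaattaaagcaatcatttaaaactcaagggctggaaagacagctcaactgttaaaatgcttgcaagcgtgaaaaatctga
Pparg: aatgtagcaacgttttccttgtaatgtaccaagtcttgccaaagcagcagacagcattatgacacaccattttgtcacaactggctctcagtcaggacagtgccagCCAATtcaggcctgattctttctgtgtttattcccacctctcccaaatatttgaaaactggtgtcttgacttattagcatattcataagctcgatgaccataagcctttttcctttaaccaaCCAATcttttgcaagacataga

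The *Gpam* sequence, for 1 of its 2 start sites, lies at chr19:55127239-55127488 on the minus strand and held 1 CCAAT box, read on the strand opposite to the gene, at 74 to 70 bases before the start. The *Agpat2* sequence (chr2:26604418-26604667, minus strand) held 2 GC boxes that share 1 base, at 42 to 32 bases before the start, and lies in the body of *Gm20532* on the other strand. The *Mogat1* sequence (chr1:78510810-78510990, plus strand, 181 bases) held neither motif and lies within *BC035947* on the other strand. The *Pparg* sequence (chr6:115421816-115422065, plus strand) precedes the start of the *Pparg2* isoform, 1 of 3 start sites, and held 2 CCAAT boxes, at 144 to 140 and 22 to 18 bases before the start. The other *Gpam* site held 1 GC box, and the other *Pparg* sites held 1 GC box, and 2 GC boxes with 1 CCAAT box. Within 250 bases before their start, 4 of the 12 start sites held a CCAAT box and 6 a GC box, beside 33.8% and 32.7% of all 32851 RefSeq promoters. An E-box of the letters CACGTG, held by 6.02% of all promoters, was found at 1 of the 12 start sites, in *Lpin2*. The sterol regulatory element core TCACNCCAC (1.05% of all promoters) and a pair of AGGTCA sites in a row with 1 base between them, the element that PPARγ and RXR bind (0.0335%), were found at none of the 12. A match describes letters and does not show a bound site.

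Of the 9 genes, 6 had a lower fitted mean in transgene livers and 3 a higher one, beside 44.1% of all tested genes with a lower mean. *Gpam*, *Mogat1*, *Pparg* and *Agpat2* had the most negative log2 fold changes, from -0.53 to -0.22, whereas *Agpat3*, *Lpin1*, *Dgat1* and *Dgat2* lay between -0.050 and 0.010. No member passed an adjusted p of 0.05, a rate of 0.0181% over all genes (2 of 11027). By unadjusted p, 2 of the 9, *Mogat1* and *Pparg*, were below 0.05, beside 7.95% of all genes tested (2.97% lower and 4.99% higher). For none of the 9 were the groups separate, beside 0.907% of all genes. The median log2 fold change was -0.050 over the 9 genes and 0.019 over all tested genes. Fold changes on the log2(CPM + 1) scale understate the change of low genes.

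**Figure D1:**
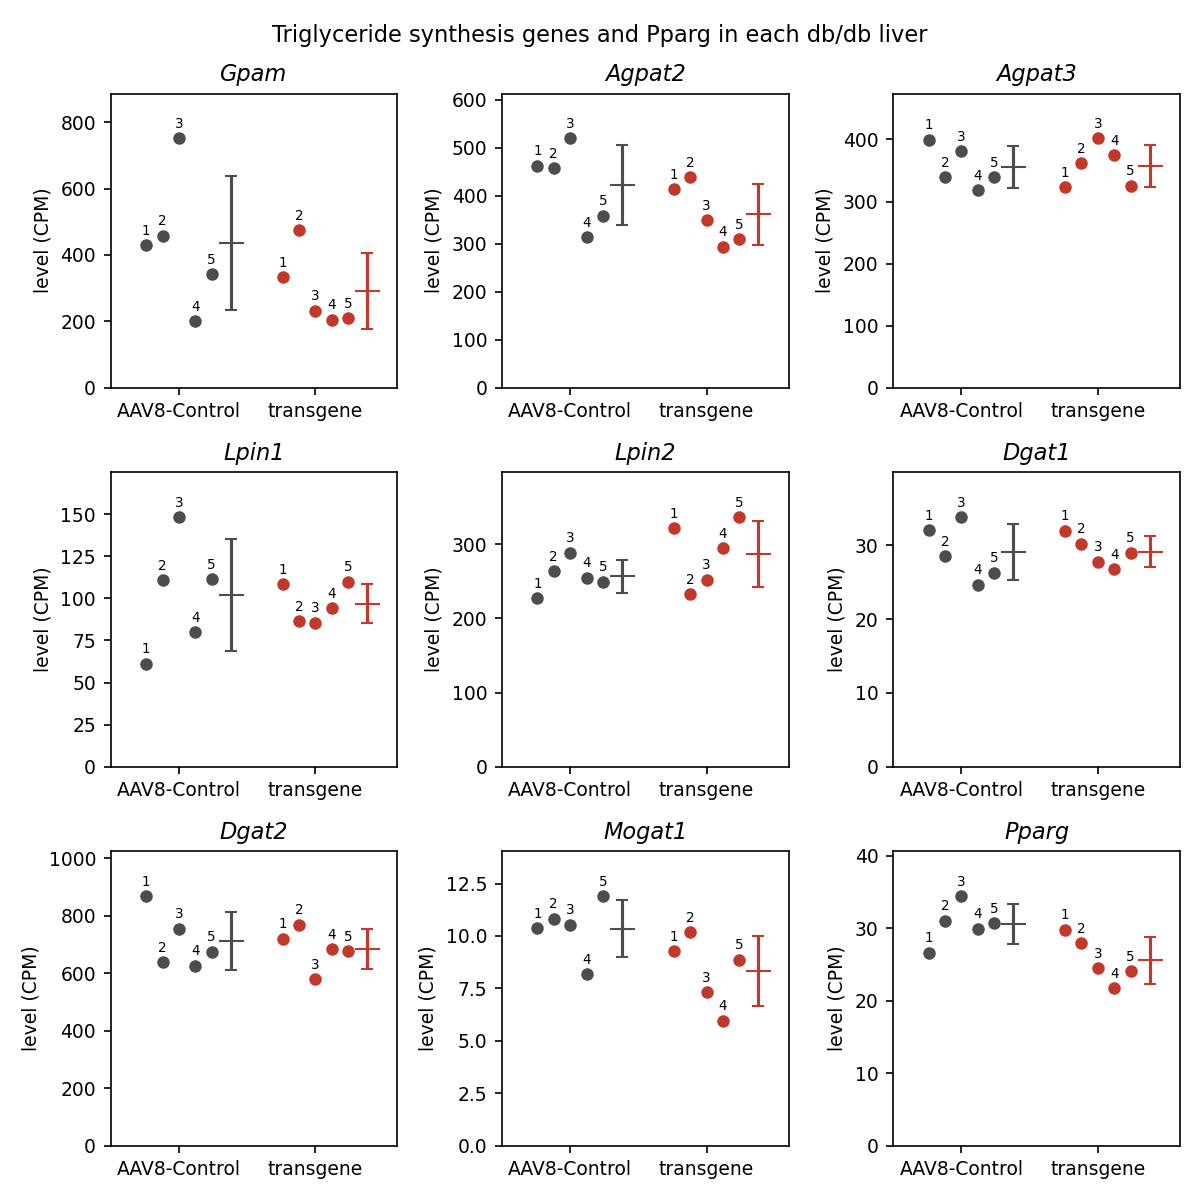
CPM of the 9 genes (y axes, each from 0) in each liver, with replicate numbers beside the points and the mean and SD of each group to their right. *Gpam* spanned 200 to 751 CPM in the control livers, and in no panel were the groups separate.

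*Gpam* (ENSMUSG00000024978, chr19:55067268-55127238, minus strand) encodes the mitochondrial glycerol-phosphate acyltransferase and varied most between livers. The control livers 1 to 5 had 429, 459, 751, 200 and 341 CPM, and the transgene livers 333, 475, 232, 204 and 210 CPM. Control replicate 4 was therefore lower than every transgene liver, and transgene replicate 2 was higher than all controls but replicate 3. The means were 436 ± 203 and 291 ± 116 CPM (SD, n = 5 each), a log2 fold change of -0.53 (SE 0.31, 95% interval -1.21 to 0.14, limma adjusted p = 0.628). Single livers set the size of this value, which was -0.78 without control replicate 4 (unadjusted p = 0.0125) and -0.31 without control replicate 3. It was also below 0.05 by unadjusted p without transgene replicate 2 (0.0303) and with the replicate number as a block in the limma fit (0.0347, adjusted 0.467).

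*Agpat2* (ENSMUSG00000026922, chr2:26593057-26604417, minus strand), which acylates lysophosphatidate, had the same livers at its extremes. Its values in control livers 1 to 5 were 463, 457, 519, 314 and 359 CPM, and in transgene livers 413, 438, 349, 294 and 309 CPM. All transgene livers lay below the control median of 457 CPM, but control replicates 4 and 5 lay there too. The log2 fold change was -0.22 (SE 0.15, 95% interval -0.54 to 0.099, limma adjusted p = 0.650), and was -0.32 without control replicate 4 (unadjusted p = 0.0361) and -0.14 without control replicate 3 (0.358). With the replicate number as a block, the unadjusted limma p of *Agpat2* was 0.0275 (adjusted 0.444), beside 0.159 in the main fit. *Agpat2* shares 64 of its 2130 exonic bases with *Egfl7*, and counting by strand is not stated.

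*Agpat3* (ENSMUSG00000001211, chr10:78269178-78352489, minus strand) acts at the same step. It was 318 to 400 CPM in the controls and 323 to 402 CPM in transgene livers, nearly the same range. Its log2 fold change was 0.0071 (95% interval -0.18 to 0.19), and its sign was the opposite with other scalings. The per-length ratio of *Agpat2* to *Agpat3* was 3.61 to 4.98 in the controls (median 4.23) and 2.87 to 4.68 in transgene livers (median 3.48), again with overlap.

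The lipins are phosphatidate phosphatases and are also nuclear co-regulators. *Lpin1* (ENSMUSG00000020593, chr12:16535669-16610966, minus strand) had 61.3, 111, 148, 79.9 and 111 CPM in control livers 1 to 5, and 108, 86.5, 85.5, 94.2 and 110 CPM in transgene livers. The values of the transgene livers lay wholly within the control range. The coefficient of variation was 32.6% in AAV8-Control and 12.1% in transgene livers, a difference in spread that was not tested. The mean difference was -0.022 on the log2 scale (95% interval -0.43 to 0.39), with a sign that changed on leaving out single livers, from -0.19 without control replicate 1 to 0.13 without control replicate 3.

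*Lpin2* (ENSMUSG00000024052, chr17:71182560-71249817, plus strand) was the only member above 0.1 in log2 fold change. The control livers had 227, 264, 289, 255 and 250 CPM, and the transgene livers 322, 232, 251.9, 294 and 336 CPM. transgene replicates 1, 4 and 5 were above every control, and replicates 2 and 3 were inside the control range. The log2 fold change was 0.15 (SE 0.10, 95% interval -0.075 to 0.38, limma adjusted p = 0.654), and was 0.22 without transgene replicate 2 (unadjusted p = 0.0381) and 0.091 without transgene replicate 5 (0.390). Per kilobase of exon, *Lpin1* stood at 0.341 to 0.650 of *Lpin2* in the controls and 0.405 to 0.471 in transgene livers.

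**Figure D2:**
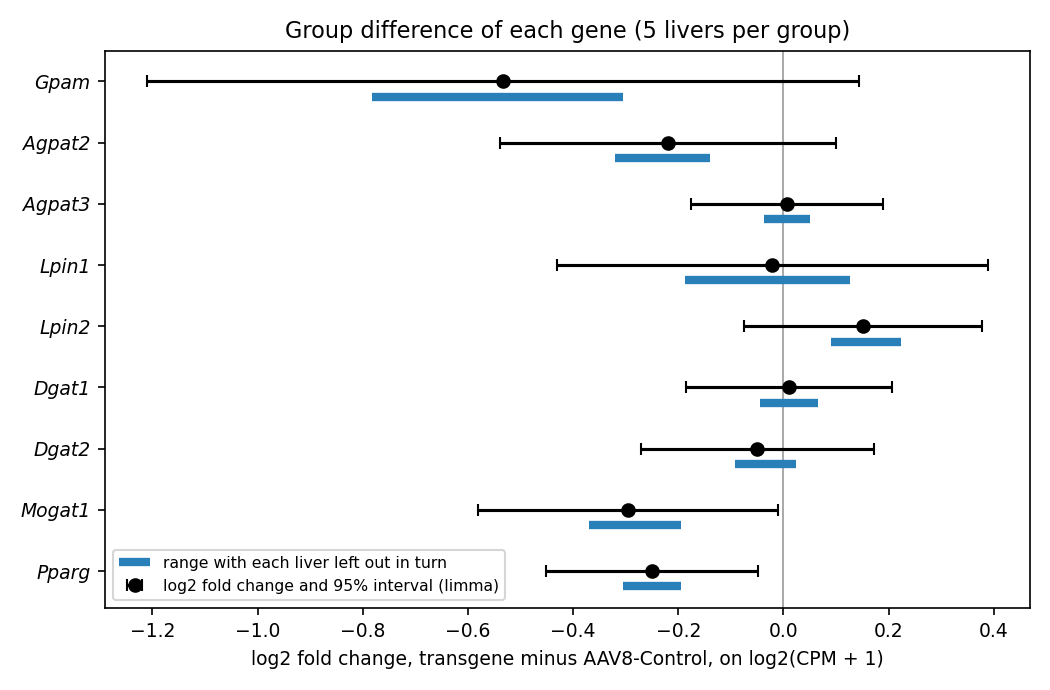
Log2 fold change of each gene, transgene livers minus AAV8-Control, with its 95% interval from limma on log2(CPM + 1) in black and the range on leaving out each liver in turn in blue. The intervals of *Mogat1* and *Pparg* lie below 0, and that of *Gpam* is the widest.

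*Dgat1* and *Dgat2* encode unrelated enzymes for the final acylation. *Dgat2* (ENSMUSG00000030747, chr7:99153658-99182719, minus strand) was 627 to 868 CPM in the controls and 580 to 769 CPM in transgene livers, a log2 fold change of -0.050 (95% interval -0.27 to 0.17). *Dgat1* (ENSMUSG00000022555, chr15:76502015-76511953, minus strand) was 24.7 to 33.8 and 26.7 to 32.0 CPM, a log2 fold change of 0.010 (95% interval -0.19 to 0.21). The intervals of both genes leave out changes of 0.3 or more on this scale. Per kilobase of exon, *Dgat2* exceeded *Dgat1* 22.1- to 26.8-fold in the controls and 20.7- to 25.4-fold in transgene livers. The sign for *Dgat1* depended on the scaling, and that for *Dgat2* turned positive in some fits that left out 1 liver.

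*Mogat1* (ENSMUSG00000012187, chr1:78510991-78538173, plus strand) was the lowest of the 9, with 129 to 374 reads in a library. It had 10.4, 10.8, 10.5, 8.16 and 11.9 CPM in control livers 1 to 5, and 9.28, 10.2, 7.32, 5.96 and 8.88 CPM in transgene livers. All controls but replicate 4 were above every transgene liver. The means were 10.4 ± 1.36 and 8.32 ± 1.68 CPM (SD, n = 5 each), a log2 fold change of -0.30 (SE 0.13, 95% interval -0.58 to -0.010). The limma p was 0.0433 before and 0.617 after adjustment, and the exact 2-sided permutation p was 0.0794, where the least that 5 livers against 5 allow is 0.00794. Its unadjusted p exceeded 0.05 without control replicate 1, 2, 3 or 5 (0.0680 to 0.103) and without transgene replicate 3 or 4 (0.0940 and 0.119), the last with a log2 fold change of -0.19. *Mogat1* shares 200 exonic bases, 12.8% of its exon length, with *BC035947* on the reverse strand, and the reads there cannot be told apart without strand.

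*Pparg* (ENSMUSG00000000440, chr6:115360951-115490399, plus strand) had the least spread relative to its change. The control livers had 26.6, 31.1, 34.4, 29.9 and 30.7 CPM, and the transgene livers 29.8, 27.9, 24.5, 21.7 and 24.1 CPM. Control replicate 1 was the only control within the range of the transgene livers. The means of 30.5 ± 2.78 and 25.6 ± 3.23 CPM (SD, n = 5 each) differed by -0.25 on the log2 scale (SE 0.093, 95% interval -0.45 to -0.049). The limma p was 0.0189 before and 0.617 after adjustment, and the exact 2-sided permutation p was 0.0476. Leaving out control replicate 3 or transgene replicate 4 gave unadjusted p-values of 0.0532 and 0.0539, with log2 fold changes of -0.21 and -0.19.

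Adipose tissue is rich in PPARγ, and fat-cell markers reached higher levels in some control libraries. Summed CPM of *Adipoq*, *Lep*, *Plin1*, *Retn* and *Cfd* was 2.33 to 15.0 in the controls and 1.89 to 3.74 in transgene livers. *Cfd* alone was 1.02 to 9.85 against 0.908 to 1.67 CPM, while *Lep* was 0 in 9 of 10 libraries and *Adipoq* did not exceed 1.23 CPM in any. The highest sums belonged to control replicates 1 and 2. Of these, replicate 1 had the lowest *Pparg* of the controls (26.6 CPM), while replicate 2 (31.1 CPM) was exceeded only by control replicate 3. Summed macrophage markers were 66.0 to 132 and 69.5 to 105 CPM, cholangiocyte markers 6.43 to 11.1 and 5.77 to 7.99 CPM, and leukocyte markers 3.72 to 6.69 and 3.04 to 4.25 CPM. By unadjusted p under 0.05, 1 of 2 tested fat-cell markers (*Cfd*) and the 1 tested leukocyte marker (*Ptprc*, log2 fold change -0.35) were lower. By the same cut, 2 of 6 hepatocyte markers (*Cps1*, 0.33, and *Tat*, 0.50) were higher. Beside these counts, 2.97% of all tested genes were lower and 4.99% higher. Of the 6 hepatocyte markers, 4 had a higher and 2 a lower mean, with log2 fold changes from -0.47 to 0.50. No macrophage or cholangiocyte marker passed. The part of other cell types in the values for *Pparg* was not tested.

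The partners of PPARγ, receptors and coactivators it binds, lay on the other side of 0 from *Pparg*. Of 15 such genes tested, 12 had a higher fitted mean in transgene livers and 3 a lower one (median log2 fold change 0.18). Over all tested genes, 44.1% had a lower mean and the median was 0.019. None of the 15 passed adjustment, and 4 were higher with an unadjusted p under 0.05, beside 4.99% of all tested genes. These were *Ep300*, a histone acetyltransferase (32.6 ± 1.93 and 42.0 ± 8.41 CPM, log2 fold change 0.34), *Ppargc1a*, a coactivator induced by fasting (0.44), *Med1*, a Mediator subunit (0.24), and *Rxrb*, a partner receptor (0.26). Of 11 tested genes that PPARγ drives in fatty liver, 10 had a lower mean (median log2 fold change -0.20), beside 44.1% of all tested genes. By unadjusted p under 0.05, 3 of the 11 were lower, beside 2.97% of all tested genes. The 3 encode lipid droplet proteins, *Plin2* (723 ± 150 and 508 ± 139 CPM, log2 fold change -0.53), *Cidec* (55.3 ± 24.2 and 26.8 ± 13.5 CPM, -1.04) and *Cidea* (47.1 ± 29.1 and 19.3 ± 10.7 CPM, -1.12). *Cd36*, a fatty acid transporter and classical target, was nearly level at -0.021. On leaving out each of the 10 livers in turn, the unadjusted p stayed under 0.05 in all 10 fits for *Ep300* and *Plin2*, in 7 for *Ppargc1a*, *Med1* and *Rxrb*, and in 6 for *Cidec* and *Cidea*.

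Neighbouring steps of glyceride synthesis were looked at in the same way. Of 7 genes of substrate supply, 3 had a higher and 4 a lower mean. *Gpd1l*, a glycerol-phosphate dehydrogenase-like enzyme, had 40.6 ± 3.78 and 48.3 ± 3.51 CPM (log2 fold change 0.24, unadjusted p = 0.00754 and limma adjusted p = 0.617), and *Gpd1*, the main cytosolic dehydrogenase, 835 ± 122 and 717 ± 82.5 CPM (-0.22). A list of 13 genes held isoenzymes of the same steps and also *Ctdnep1* and *Cnep1r1*, a phosphatase of the lipins and its partner. Of these 13, 8 had a higher and 5 a lower mean, and none an unadjusted p under 0.05, beside 7.95% of all tested genes. *Gpat4*, the endoplasmic reticulum counterpart of *Gpam*, was 195 ± 19.7 and 210 ± 25.0 CPM, with a log2 fold change of 0.11 beside -0.53 for *Gpam*. The difference between these paralogs was not tested.

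Of 17 genes that lead diacylglycerol and phosphatidate into phospholipid, 4 had an unadjusted p under 0.05 (7.95% of all tested genes), 3 higher (4.99%) and 1 lower (2.97%). *Dgka*, which phosphorylates diacylglycerol back to phosphatidate, had 8.09 ± 0.732 and 10.96 ± 1.55 CPM (log2 fold change 0.39). *Etnk2*, an ethanolamine kinase, had 266 ± 38.8 and 346 ± 57.4 CPM (0.37). *Pemt*, which methylates phosphatidylethanolamine to phosphatidylcholine, was the only 1 of the 17 whose groups were separate, at 339 to 369 CPM in the controls and 292 to 330 CPM in transgene livers (log2 fold change -0.13), beside 0.907% of all tested genes. On leaving out each of the 10 livers in turn, the unadjusted p of *Pemt* stayed under 0.05 in 2 of 10 fits (highest p 0.114), and those of *Dgka* and *Etnk2* in all 10. No gene of these lists passed adjustment.

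**Figure D3:**
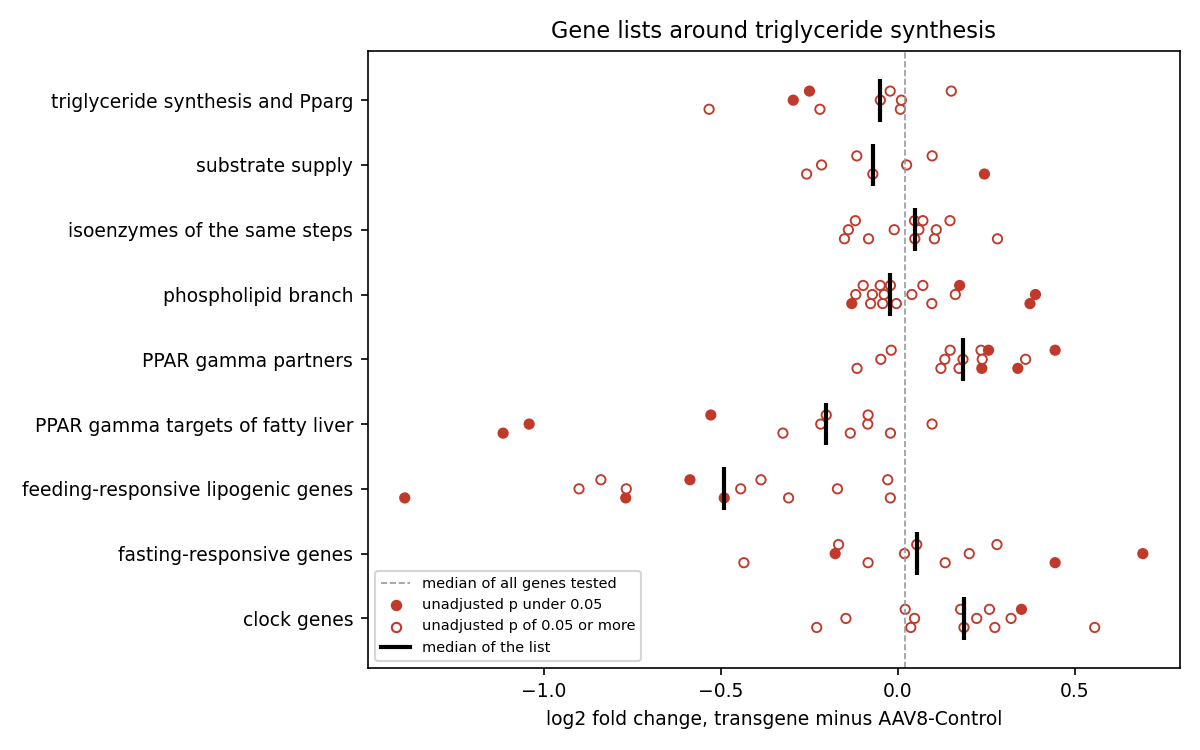
Log2 fold changes, transgene livers minus AAV8-Control, of the genes in each list around triglyceride synthesis, with a bar at each list's median, filled points for an unadjusted p under 0.05 and a dashed line at the median of all genes tested. The medians of the PPARγ partners (0.18) and the PPARγ targets (-0.20) lie on opposite sides of 0.

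The livers with the most and the least of one gene often had the most and the least of the next. Control replicate 4 was lowest of the controls for 6 of the 9 genes and control replicate 3 highest for 6, while transgene replicate 4 was lowest of its group for 5 and transgene replicate 2 highest for 4. Genes that feeding and insulin raise in liver were therefore set beside them. All 13 tested had a lower mean in transgene livers, beside 44.1% of all tested genes, and 4 were lower with an unadjusted p under 0.05, beside 2.97% (median log2 fold change -0.49). *Me1*, the malic enzyme that supplies NADPH, was 186 CPM in control replicate 4 and 522 CPM in control replicate 3, and was 366 CPM in transgene replicate 2 and 122 to 219 CPM in the other transgene livers. The part of feeding in the values for *Gpam* was not tested.

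Across the 10 livers, 36 pairs of the 9 genes were compared on log2(CPM + 1), of which 26 had a positive Pearson correlation. Both values of a liver come from 1 library and share its scaling. Only *Gpam* with *Agpat2* passed adjustment over the 36 pairs, with r = 0.96 (permutation p = 3e-05, adjusted 0.00108) and Spearman rho = 0.90 (permutation p = 0.00076, adjusted 0.0274). Without the 2 livers farthest from the median of *Gpam*, r was 0.94, and on deviations from the group means it was 0.95. On such deviations, *Agpat2* with *Dgat1* (0.88), *Gpam* with *Dgat1* (0.84) and *Lpin1* with *Lpin2* (0.69) also passed adjustment. *Mogat1* with *Pparg* had r = 0.76 (permutation p = 0.0104, adjusted 0.106) and rho = 0.76 (permutation p = 0.0155, adjusted 0.138), neither past adjustment. Its r was 0.62 on deviations from the group means. Without the 2 livers farthest from the median of *Mogat1* it was 0.38, but leaving them out also narrows the range of *Mogat1*.

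**Figure D4:**
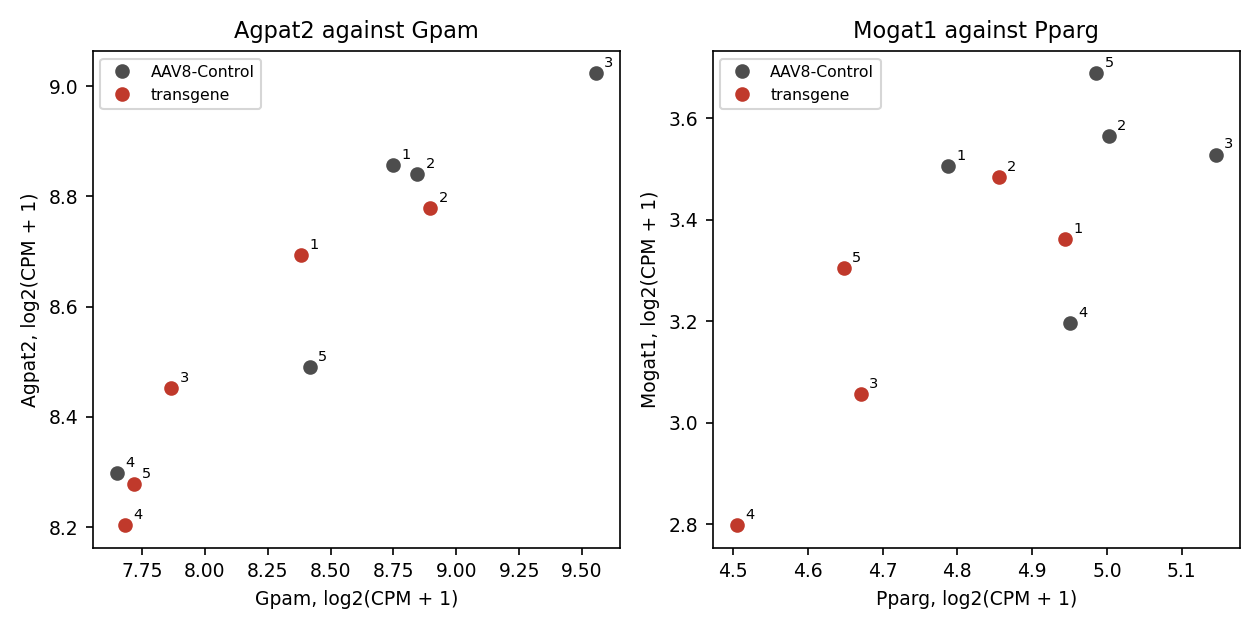
Log2(CPM + 1) of *Agpat2* against *Gpam* and of *Mogat1* against *Pparg*, 1 point a liver with its replicate number, colours for the groups. *Gpam* and *Agpat2* (r = 0.96) line up across both groups, with control replicate 3 at the top and control replicate 4 among the lowest.

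For each gene, the non-member with the closest profile over the 10 livers was found by Pearson correlation on the same scale, as a description. *Gpam* was most like *Tkt*, the pentose phosphate enzyme transketolase (0.98), and *Acaca*, acetyl-CoA carboxylase (0.98). *Pparg* was most like *Pdhb*, a pyruvate dehydrogenase subunit (0.98), and *Lpin2* like *Foxo1*, a transcription factor that insulin restrains (0.92). *Mogat1* was most like *Anxa5* (0.97), *Agpat2* like *Dixdc1* (0.98), *Agpat3* like *Tmem120a* (0.97), *Dgat2* like *Slc25a37* (0.95), *Dgat1* like *Zfp746* (0.91) and *Lpin1* like *Tmem41b* (0.88).

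Levels between genes were compared only as CPM per kilobase of exon. In the control livers the order was *Dgat2* (231 ± 32.5), *Agpat2* (198 ± 39.4), *Gpam* (65.4 ± 30.5), *Agpat3* (45.7 ± 4.34), *Lpin2* (21.0 ± 1.81), *Lpin1* (10.6 ± 3.44), *Pparg* (10.3 ± 0.942), *Dgat1* (9.52 ± 1.26) and *Mogat1* (6.65 ± 0.874; SD, n = 5). *Dgat2* and *Agpat2*, *Gpam* and *Agpat3*, and *Lpin1*, *Pparg* and *Dgat1* did not differ beyond their spread, whereas the ranges of *Lpin2* and of *Mogat1* were separate from their neighbours. Per kilobase of the longest coding sequence, *Agpat3* (315) came before *Gpam* (176) and the other 7 kept their order.

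**Figure D5:**
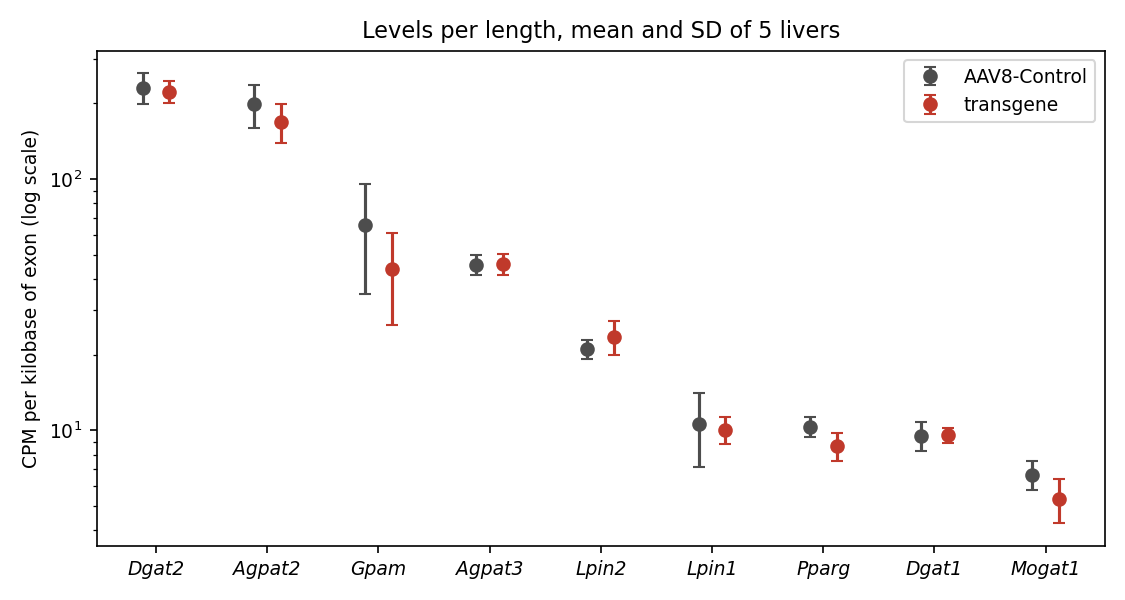
CPM per kilobase of exon for each gene on a log axis, as mean and SD of the 5 livers of each group, ordered by the control mean. *Dgat2* and *Agpat2* lead at 231 and 198, and *Mogat1* is last at 6.65.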

How the data were processed

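RNA-seq was done on 10 livers, 5 AAV8-Control livers and 5 transgene livers, with poly-A selected RNA and single 50-base reads, per the labels. The submitters' processing notes name STAR 2.0.4b, featureCounts 1.4.5 and build GRCm38.p2. The deposited values are CPM per gene, which the authors scaled to the reads of each library. Whether reads were counted by strand is not given in the sources used here. CPM steps gave whole reads for 100% of values (tolerance 0.05 read), 1 read being worth 0.0282 to 0.0513 CPM. The table had 15236 lines for 15126 genes, with 110 repeats dropped.

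The 11027 genes whose mean reached 1 CPM were fitted with limma 3.58.1 in R 4.3.3 on log2(CPM + 1) without covariates, p-values being adjusted by Benjamini-Hochberg. The fit was tested on simulated data. As an alternative, edgeR 4.0.16 on the recovered reads called 2 genes, and DESeq2 1.42.0 called 19. Correlation p-values came from 100000 permutations. Exon lengths and overlaps came from GENCODE annotation of GRCm38, and promoters from RefSeq.

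The 9 genes, the lists and the tests were chosen with earlier results of these data known. From each list the 3 genes with the smallest p, and all whose groups were separate, were named, with the 2 closest profiles per gene computed. Genes and the transgene that the rule would name but that are not reported here were left out. *Rxrb* and *Cd36* were chosen after their values were seen. Alternatives were another pseudocount, filter, scaling, tool, a replicate block and leaving out each library.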

Additional observations from a re-analysis of the deposited data

Results flagged for a closer look

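Of 60 groups of 5 livers looked at for 30 named genes, 1 held a liver far from the rest, and chance alone flags about 1 group in 20. *Mogat2*, the intestinal relative of *Mogat1*, was 6.26 CPM in AAV8-Control replicate 1 and 3.61 to 4.26 CPM in the other controls.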

How the results depend on the processing

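Genes with an adjusted p under 0.05 numbered 2, and 1 with a filter of 10 reads in every library, 19 with DESeq2 and 1 to 4 on leaving out 1 library. By unadjusted p, 877 genes (550 higher, 327 lower) became 470 without transgene replicate 5 and 1509 without transgene replicate 1, of which 1184 were higher, and the split was 527 to 456 with DESeq2 size factors. Among the 9 triglyceride synthesis and *Pparg* genes, 2 passed an unadjusted p of 0.05, and 1 did with no filter (beside 7.15% of all genes) or with edgeR (9.11%), and 0 (without control replicate 3, beside 5.94%, or transgene replicate 4, 5.29%) to 4 (without control replicate 4, 8.64%, or transgene replicate 2, 12.6%) on leaving out 1 library. The log2 fold changes of *Gpam*, *Agpat2*, *Lpin2*, *Mogat1* and *Pparg* kept their sign in all 19 alternatives, and the lowest adjusted p of any member was 0.311. *Agpat3* turned to -0.013 (DESeq2 size factors and TMM) and -0.014 (edgeR and DESeq2), and *Dgat1* to -0.0095, -0.0091, -0.012 and -0.013 in that order and to -0.030 with voom. Leaving out 1 library gave -0.036 to 0.050 for *Agpat3*, -0.19 to 0.13 for *Lpin1*, -0.045 to 0.065 for *Dgat1* and -0.093 to 0.024 for *Dgat2*. The cause was not tested. Correlated pairs numbered 1, and 4 on deviations from group means.

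The main fit did not treat replicate numbers as pairs, and whether same-numbered livers belong together is not known. Deviations from the group means of same-numbered livers correlated at 0.0751 to 0.314, and 4 of 5 correlated best with their own number. With a replicate block, 5 genes passed adjustment, 1115 had an unadjusted p under 0.05, and so did 4 members beside 10.1% of all genes (*Gpam*, *Agpat2*, *Mogat1* and *Pparg*). Their unadjusted limma p-values with the block were 0.0347, 0.0275, 0.00878 and 0.0320 in that order, beside 0.112, 0.159, 0.0433 and 0.0189 without it.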

Other observations

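The clock genes, which pace hepatic lipid synthesis through the day, had a higher fitted mean in transgene livers for 11 of 13 tested (median log2 fold change 0.19). Over all tested genes, 44.1% had a lower mean and the median log2 fold change was 0.019. *Cry1*, a clock repressor, measured 7.19 ± 0.543 CPM in control livers against 9.62 ± 2.37 CPM in transgene livers (log2 fold change 0.35), and was the only 1 of the 13 with an unadjusted p under 0.05, a share near the 7.95% of all tested genes. Of 11 fasting-responsive genes, 7 had a higher and 4 a lower mean. *Pck1*, the gluconeogenic carboxykinase, was 1976 ± 566 and 3255 ± 1088 CPM (0.69). No gene of either list had a limma adjusted p under 0.05.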
